A study of Mus musculus with 24 samples.

Results

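The genes described here are the vitamin D (VitD) receptor *Vdr*, its retinoid X receptor partners *Rxra*, *Rxrb* and *Rxrg*, the VitD-handling enzymes *Cyp2r1*, *Cyp27a1*, *Cyp27b1* and *Cyp24a1*, the chaperone *Pdia3* and the calcium channel gene *Trpv6*. They were taken by gene symbol, 10 of the 30270 genes in the deposited tables, and all 10 were present. RNA sequencing was done on bilateral micropunches of the nucleus accumbens (NAc) and of the ventral tegmental area (VTA) of 12 mice on a C57BL/6 background, 3 in each of 4 groups: wild-type given PBS, *Vdr*-/- given PBS, wild-type given morphine (5 mg/kg) and *Vdr*-/- given morphine. Per the study's text, tissue was taken 90 min after the intraperitoneal injection, but its methods give an earlier time for the saline control mice of a morphine time course, and whether these PBS mice were among them is not stated. The mouse numbers are the same in both regions, so the 24 libraries form 12 pairs from single mice. The age of these mice is not given in the sources used here. The *Vdr*-/- mice are knockouts in every tissue and were raised on chow enriched in calcium, lactose and phosphate, and the chow of these wild-type mice is not given in the sources used here, so genotype and diet cannot be told apart.

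VitD is converted to its active hormone in steps. 25-hydroxylases (*Cyp2r1*, and the mitochondrial sterol 27-hydroxylase *Cyp27a1*) act first, the 1-alpha-hydroxylase *Cyp27b1* makes the hormone calcitriol, and the 24-hydroxylase *Cyp24a1* inactivates it. Calcitriol binds VDR, which pairs with a retinoid X receptor (RXR) on paired half-sites in DNA and drives target genes, of which *Cyp24a1* and *Trpv6* are classical ones in kidney and intestine. RXRs are not particular to VitD: they also pair with retinoic acid, thyroid hormone, PPAR and LXR receptors, and *Rxrg* is the form known for its expression in striatum.

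The sequences 5′ of *Rxrg* and *Cyp27a1*, the 2 genes that passed the region-by-morphine test below, are shown with the 250 bases before the RefSeq start (GRCm38.p6), 5′ to 3′ on the strand of the gene. Capitals mark the consensus half-site AGGTCA, its variant AGTTCA, the related word GGGTCA or its variant GGTTCA, which VDR and RXR can bind, read on either strand. *Rxrg* has another listed start farther along, not shown. The *Rxrg* gene lies at chr1:167598384-167639623 (+) and its window is chr1:167598112-167598361 (+). *Cyp27a1* lies at chr1:74713574-74737892 (+) and its window is chr1:74713285-74713534 (+), both outside annotated exons.
Rxrg: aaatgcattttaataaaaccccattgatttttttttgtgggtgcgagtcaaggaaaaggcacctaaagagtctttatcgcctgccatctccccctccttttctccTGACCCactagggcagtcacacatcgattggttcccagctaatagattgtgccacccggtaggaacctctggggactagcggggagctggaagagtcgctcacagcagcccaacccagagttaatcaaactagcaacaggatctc
Cyp27a1: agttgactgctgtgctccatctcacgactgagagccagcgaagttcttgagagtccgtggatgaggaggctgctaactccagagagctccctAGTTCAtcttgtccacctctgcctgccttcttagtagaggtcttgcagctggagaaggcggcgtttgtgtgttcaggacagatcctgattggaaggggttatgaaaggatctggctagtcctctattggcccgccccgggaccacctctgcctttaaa
Each of these windows held 1 such word. Of all 32851 promoter windows of this length in the RefSeq table, 38.6% held at least 1, as did 7 of the 12 windows of the 9 members with an entry. A pair of these words in the same direction with 3 bases between them, the arrangement of the classical VitD response element, was found in 0.0396% of all windows and in 0 of the 12. *Cyp24a1* had no entry.

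The depth was 9328726 to 30184426 reads assigned to genes. CPM are reads scaled by that total of the library. Of the 10 genes, 5 were measurable in both regions (*Rxra*, *Rxrb*, *Rxrg*, *Cyp27a1* and *Pdia3*, each with at least 39 reads in every library), and *Cyp27b1* was measurable in the NAc, with 13 to 35 reads. *Vdr*, *Cyp24a1*, *Cyp2r1* and *Trpv6* never exceeded 19 reads and lay under the minimum mean value of 10 that a gene needed to be tested in the table of a comparison. The tissue labels were checked against marker genes. The 8 medium spiny neuron markers, which include *Drd1*, *Ppp1r1b* and *Penk*, summed to 1766 to 3720 CPM in the NAc and 172 to 244 CPM in the VTA. The 8 dopamine neuron markers, which include *Th* and *Slc6a3*, summed to 44.6 to 82.8 CPM in the NAc and 125 to 2431 CPM in the VTA. The VTA sum was 1910 to 2431 CPM in wild-type mice given PBS, 364 to 1818 CPM in *Vdr*-/- mice given PBS, 125 to 409 CPM in wild-type mice given morphine and 453 to 936 CPM in *Vdr*-/- mice given morphine. These sums thus differed between the VTA groups. The cortical excitatory neuron markers, which include *Slc17a7*, also varied among the libraries of both regions. They summed to 393 to 1138 CPM in the NAc and 7.29 to 163 CPM in the VTA. In such bulk samples fewer cells of a type, less RNA per cell and differences in where the punch fell cannot be told apart.

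Among these genes the highest levels per kilobase of exon belonged to *Pdia3*, an endoplasmic reticulum protein disulfide isomerase that has also been described as a membrane-associated binder of calcitriol. It stood at 39.6 ± 4.48 CPM per kb in the NAc and 50.1 ± 4.84 in the VTA (SD, n = 12 libraries each). In the NAc the next were *Rxrg* (23.6 ± 6.74 CPM per kb), *Rxrb* (12.03 ± 1.76), *Rxra* (7.99 ± 0.501) and *Cyp27a1* (1.77 ± 0.285). The lower end there was formed by *Cyp27b1* (0.538 ± 0.122 CPM per kb), *Cyp2r1* (0.238 ± 0.158), *Trpv6* (0.0614 ± 0.0544), *Vdr* (0.0516 ± 0.0418) and *Cyp24a1* (0.0314 ± 0.0220). *Rxra* and *Cyp27a1* overlapped with neither neighbor in this order, *Rxrg* (lowest 15.4 CPM per kb) and *Rxrb* (highest 16.9) overlapped, and *Pdia3* (lowest 32.7) and *Rxrg* (highest 34.3) did so narrowly. From *Cyp27b1* down, each gene overlapped with the next. In the VTA *Rxra* (11.9 ± 1.13 CPM per kb) and *Rxrb* (10.9 ± 0.562) followed *Pdia3* with overlapping libraries, then *Cyp27a1* (6.27 ± 1.81) and *Rxrg* (4.08 ± 0.926), which also overlapped. *Cyp2r1* (0.168 ± 0.0592 CPM per kb), *Trpv6* (0.0974 ± 0.0486), *Vdr* (0.0820 ± 0.0391), *Cyp27b1* (0.0627 ± 0.0455) and *Cyp24a1* (0.0511 ± 0.0272) closed the VTA order and could not be ranked within their spread.

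**Figure D1:**
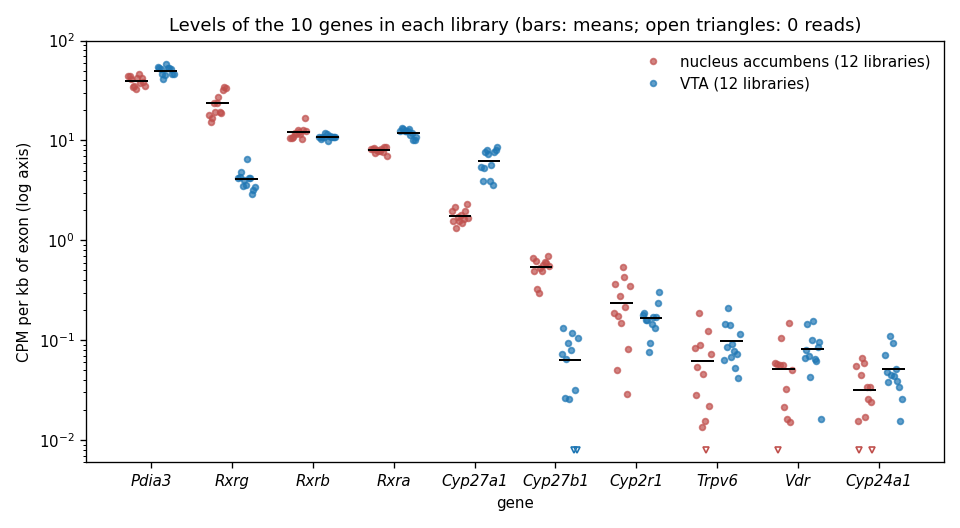
Level of each gene in CPM per kb of exon (log axis) in the 12 NAc and 12 VTA libraries, with bars for the means and open triangles at the bottom for libraries with 0 reads. *Pdia3* is highest in both regions, *Rxrg* and *Cyp27b1* sit higher in the NAc, *Cyp27a1* and *Rxra* sit higher in the VTA, and *Trpv6*, *Vdr* and *Cyp24a1* lie near or below 0.2 CPM per kb.

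*Vdr*, the gene targeted in the knockout, was at the limit of detection in both genotypes. In the NAc wild-type mice had 14, 1 and 7 reads after PBS and 2, 3 and 1 after morphine, and *Vdr*-/- mice had 6, 10 and 6 after PBS and 5, 6 and 0 after morphine. In the VTA wild-type mice had 12, 10 and 2 reads after PBS and 17, 6 and 5 after morphine, and *Vdr*-/- mice had 7, 3 and 17 after PBS and 6, 8 and 12 after morphine. The genotypes overlapped throughout. The means were 0.315 ± 0.188 CPM in *Vdr*-/- and 0.269 ± 0.293 CPM in wild-type NAc (SD, n = 6; 33 and 28 reads in all), with p = 0.71 in a two-sided exact permutation test of genotype within injection (400 arrangements, smallest p 0.005). In the VTA the means were 0.474 ± 0.198 and 0.453 ± 0.261 CPM (n = 6; 53 and 52 reads), with an exact permutation p of 0.84, and both p-values became 0.84 after Benjamini-Hochberg adjustment over the 2 regions. The reads of *Vdr* therefore did not separate the genotypes, which rest on the sample labels. A count over the whole gene cannot show whether the deleted part was transcribed, and which exons were removed is not given in the sources used here. The single library at 0 reads allows up to 3 reads, or 0.322 CPM, which is above the wild-type mean of 0.269 CPM.

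The other genes near this limit were the metabolic genes *Cyp24a1* and *Cyp2r1* and the calcium channel gene *Trpv6*. *Cyp24a1* had 0 to 4 reads per NAc library and 1 to 10 per VTA library. In PBS mice the *Vdr*-/- NAc libraries held 3, 4 and 4 reads of *Cyp24a1* and the wild-type ones 2, 1 and 0. After morphine they held 3, 1 and 0 against 1, 2 and 1, so the genotypes separated by 1 read in PBS mice and overlapped in morphine mice. In the VTA of PBS mice *Cyp24a1* had 7, 2 and 10 reads in *Vdr*-/- mice (0.389, 0.161 and 0.331 CPM) and 3, 1 and 2 in wild-type mice (0.122, 0.0548 and 0.0912 CPM), again higher in *Vdr*-/- mice with no overlap in CPM. After morphine the VTA libraries held 4, 3 and 2 reads against 3, 3 and 2, which overlapped. Of the *Cyp24a1* exons, 2.33% overlap those of *Pfdn4* on the opposite strand, and the strand setting of the counts is not given in the sources used here. *Cyp2r1* ranged from 1 to 19 reads in the NAc, where the wild-type PBS libraries alone spanned 1 to 18, and from 2 to 14 in the VTA. In the VTA of PBS mice it had 6, 2 and 6 reads in *Vdr*-/- and 9, 9 and 14 in wild-type mice, with no overlap, and after morphine 6, 7 and 5 against 6, 6 and 4, which overlapped. *Trpv6* ranged from 0 to 14 reads in the NAc and from 3 to 15 in the VTA. Differences between groups in these 3 genes were not tested, and each value rests on few reads.

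**Figure D2:**
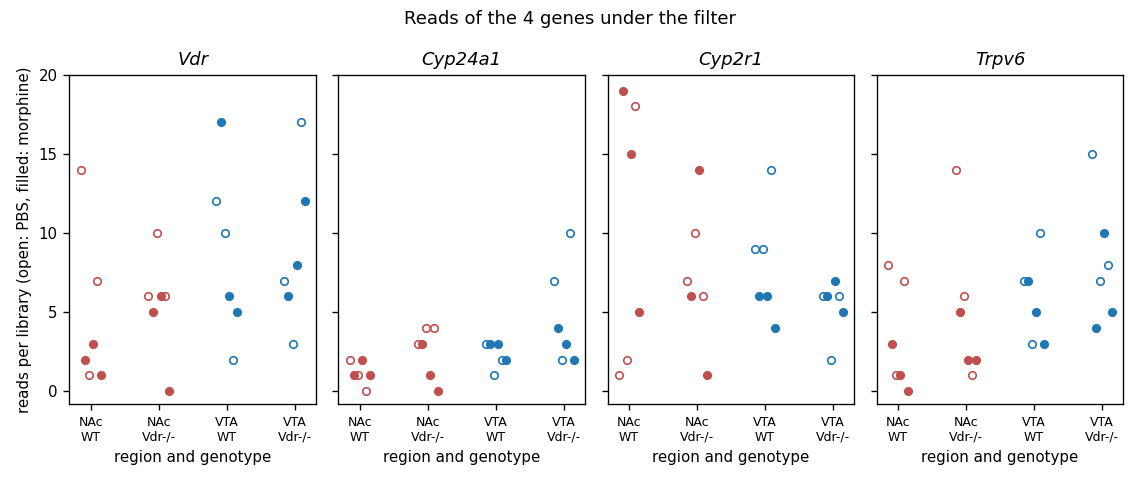
Reads per library of *Vdr*, *Cyp24a1*, *Cyp2r1* and *Trpv6* by region and genotype, with open points for PBS and filled points for morphine. All values lie between 0 and 19 reads, and the *Vdr* points of wild-type and *Vdr*-/- mice overlap in both regions.

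The 6 measurable genes differed between the regions within mice, in a limma fit of log2(CPM + 0.5) with mouse as a block. All 6 of 6 passed an adjusted p of 0.05, where 71.9% of 16242 tested genes did, so the number of calls is little above that of genes at large. *Cyp27b1* reached the filter of this fit only through its NAc reads. *Rxrg*, the striatal RXR, was 54.1 ± 15.5 CPM in the NAc (lowest 35.4, median 49.6, highest 78.7) and 9.37 ± 2.13 CPM in the VTA (lowest 6.70, median 9.44, highest 14.8; SD, n = 12 each). The regions did not overlap, and all 12 mice were higher in the NAc, by 3.49 to 11.1 times. The difference was 2.44 ± 0.15 on the log2 scale (SE, adjusted p = 1.37e-09). The medium spiny neuron markers were also higher there, 8 of 8 past the threshold with a median log2 difference of 4.09. So were 4 of 4 cortical excitatory (median 4.25), 4 of 6 microglia, 2 of 3 choroid plexus and 2 of 6 astrocyte markers. The part of these cells in the *Rxrg* result was not tested.

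*Cyp27b1*, which makes calcitriol, was likewise higher in the NAc in all 12 mice, at 1.38 ± 0.315 CPM (0.769 to 1.81) against 0.162 ± 0.117 CPM (0 to 0.340). The log2 difference was 1.51 ± 0.13 (adjusted p = 3.96e-08), which understates the 8.57-fold ratio of the mean CPM, since 0.5 was added before the logarithm. The VTA libraries held 0 to 6 reads of *Cyp27b1*, so it met the minimum mean of 10 reads through the NAc. That filter favored a difference in this direction, and the p is no independent support for it. *Rxrb*, the widely expressed RXR, was 47.8 ± 6.98 CPM (40.8 to 67.3) against 43.3 ± 2.23 CPM (38.9 to 47.6), higher in the NAc in 8 of 12 mice, with a log2 difference of 0.13 ± 0.05 (adjusted p = 0.0443). Its libraries overlapped almost fully, and leaving out 1 mouse brought the adjusted p to between 0.0529 and 0.087 for 7 of the 12 mice.

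The remaining measurable genes were higher in the VTA in all 12 mice. *Cyp27a1* was 13.6 ± 3.94 CPM in the VTA (lowest 7.87, median 14.2, highest 18.5) and 3.84 ± 0.618 CPM in the NAc (lowest 2.91, median 3.70, highest 4.99), with no overlap and a log2 difference of -1.66 ± 0.12 for NAc minus VTA (adjusted p = 9.64e-09). The 7 oligodendrocyte markers, which include *Mbp* and *Mog*, were also all higher in the VTA (median log2 difference -1.18). So were 6 of 6 endothelial, 7 of 7 pericyte and fibroblast, 4 of 4 oligodendrocyte precursor, 7 of 8 dopamine neuron and 4 of 6 astrocyte markers. The part of these cells in the *Cyp27a1* result was not tested. *Rxra* stood at 65.3 ± 6.17 CPM in the VTA (54.9 to 72.0) and 43.6 ± 2.73 CPM in the NAc (38.1 to 47.4), again without overlap (log2 difference -0.57 ± 0.05, adjusted p = 7.09e-08). *Pdia3* stood at 157 ± 15.2 CPM (129 to 182) against 124 ± 14.1 CPM (103 to 146), with overlap between mice but a difference of the same sign in every mouse (log2 difference -0.34 ± 0.03, adjusted p = 1.59e-07). The 6 log2 differences had a median of -0.11, and all 16242 genes one of -0.08.

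The comparison of *Vdr*-/- with wild-type mice asked whether loss of the receptor changes its partners and enzymes. In limma on log2(value + 1) of the deposited values, 0 of 6 tested members passed in the NAc after PBS, where 0.069% of 15933 genes did, and 0 of 6 after morphine, where 0.192% of 15638 did. In the VTA 0 of 5 passed after PBS, where 0.39% of 16425 genes did, and 0 of 5 after morphine, where 0.0624% of 16029 did. *Rxrg* separated the genotypes in the NAc of PBS mice. Wild-type mice had 74.4, 78.7 and 76.4 CPM and *Vdr*-/- mice 54.4, 44.7 and 55.1 CPM. The groups did not overlap, and every *Vdr*-/- value was under every wild-type value. The log2 difference was -0.56 ± 0.10 (95% interval -0.78 to -0.33, unadjusted p = 0.000613 in limma), but the adjusted p was 0.295 in limma and 0.00471 in DESeq2 on the recovered reads, so the call depends on the tool. The DESeq2 fit called 63 genes in this comparison, limma 11 and edgeR 12. All 8 medium spiny neuron markers had negative signs in the same comparison (median log2 difference -0.27, 0 called), with sums of 3033 to 3720 CPM in wild-type and 2712 to 3141 CPM in *Vdr*-/- mice. Also negative were 7 of 7 oligodendrocyte (median -0.28), 6 of 6 microglia (-0.11), 5 of 6 endothelial, 4 of 6 astrocyte and 3 of 4 oligodendrocyte precursor markers. Positive signs were seen in 4 of 4 cortical excitatory (0.51), 4 of 5 dopamine neuron and 2 of 2 choroid plexus markers. Of these markers 0 were called, and the part of these cells in the *Rxrg* difference was not tested.

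After morphine the order was the same but closer. Wild-type mice had 62.6, 44.5 and 43.2 CPM of *Rxrg* and *Vdr*-/- mice 41.7, 35.4 and 38.5 CPM. The groups were apart by a narrow margin (log2 difference -0.36 ± 0.12, adjusted p = 0.512). In the VTA the *Rxrg* difference by genotype was 0.21 ± 0.11 after PBS and -0.13 ± 0.16 after morphine on the log2 scale, with adjusted p of 0.408 and 0.845. Whether the genotype difference of *Rxrg* depended on region was tested within mice, with genotype and injection as terms, a test chosen after seeing the data. That coefficient was -0.52 ± 0.14 (adjusted p = 0.722 in limma over all genes tested). In the same test 0 of 6 members passed, as did 0% of 16242 genes, of which 962 had an unadjusted p under 0.05.

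*Rxra*, another RXR, separated by genotype in the VTA of PBS mice but not of morphine mice. After PBS it was 55.1, 54.9 and 58.9 CPM in wild-type and 68.7, 67.3 and 68.2 CPM in *Vdr*-/- mice, with no overlap. The log2 difference of 0.25 ± 0.05 (95% interval 0.15 to 0.36) had an adjusted p of 0.0869 in limma and 0.0413 in DESeq2. The 8 dopamine neuron markers were all lower by sign in the same *Vdr*-/- mice (median log2 difference -1.15, 0 called). So were 6 of 6 microglia, 5 of 6 astrocyte and 5 of 6 endothelial markers. Higher by sign were 7 of 8 medium spiny neuron and 3 of 3 cortical excitatory markers. The part of these cells in the *Rxra* difference was not tested. After morphine *Rxra* in the VTA was 70.9, 61.5 and 65.3 CPM in wild-type and 68.7, 72.0 and 71.6 CPM in *Vdr*-/- mice, which overlapped (log2 difference 0.10 ± 0.06, adjusted p = 0.621). In the NAc *Rxra* differed by -0.03 ± 0.09 after PBS (95% interval -0.25 to 0.18) and 0.07 ± 0.06 after morphine (-0.06 to 0.20). *Cyp27b1* in the NAc of PBS mice was 1.51, 1.81 and 1.43 CPM in wild-type and 0.847, 0.769 and 1.38 CPM in *Vdr*-/- mice, apart by a small gap on 13 to 35 reads (log2 difference -0.65 ± 0.27, adjusted p = 0.543). After morphine the genotypes overlapped, with 1.26, 1.46 and 1.55 CPM against 1.72, 1.27 and 1.61 CPM. Differences in *Cyp27a1* by genotype lay between -0.34 and 0.20 on the log2 scale over the 4 comparisons and those in *Pdia3* between -0.15 and 0.04, with adjusted p of 0.369 or more.

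**Figure D3:**
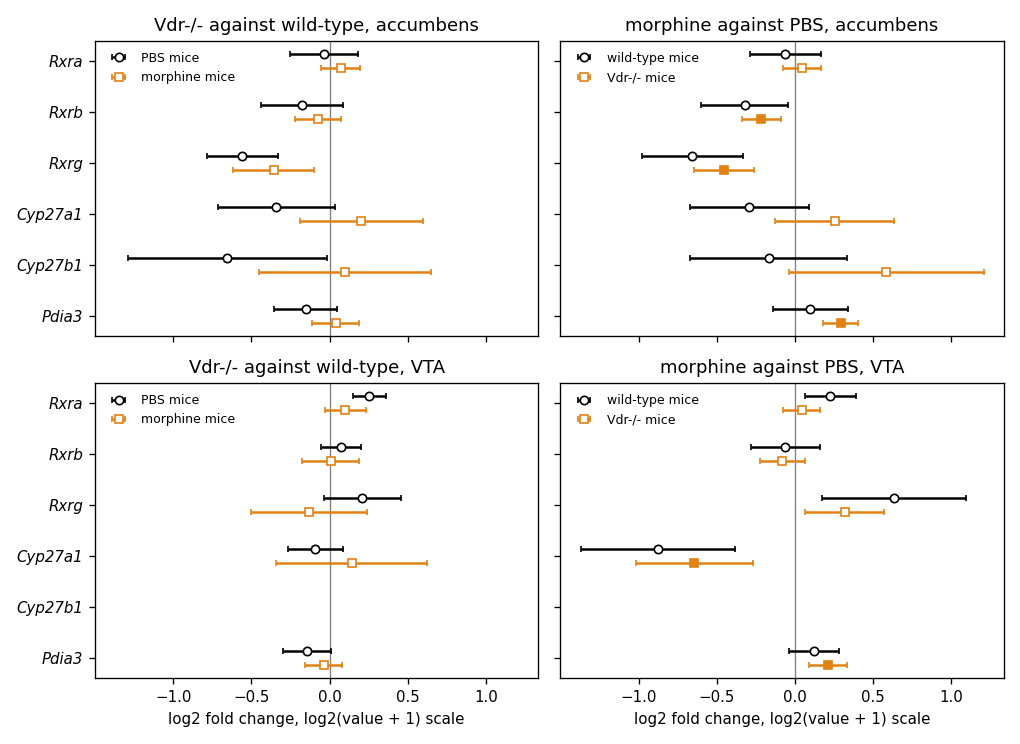
Log2 fold changes of the tested genes with 95% intervals from limma, for *Vdr*-/- against wild-type mice (left) and morphine against PBS (right) in the NAc (top) and VTA (bottom); filled symbols mark an adjusted p under 0.05. No symbol is filled on the left, and on the right 3 are filled in the NAc and 2 in the VTA, all of them in *Vdr*-/- mice; *Cyp27b1* was not tested in the VTA.

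The comparison of morphine with PBS within a genotype asked what the injection changed. These comparisons share their PBS and morphine mice with those by genotype above. In the NAc of *Vdr*-/- mice 3 of 6 tested members passed, where 19.1% of 15820 genes did. *Rxrg* fell from 54.4, 44.7 and 55.1 CPM after PBS to 41.7, 35.4 and 38.5 CPM after morphine, with no overlap (log2 difference -0.45 ± 0.09, adjusted p = 0.00538). *Rxrb* fell from 46.8, 46.5 and 50.6 CPM to 42.4, 42.5 and 42.6 CPM (log2 difference -0.21 ± 0.06, adjusted p = 0.0230 in limma and 0.0761 in DESeq2). *Pdia3* rose from 109, 111 and 103 CPM to 138, 138 and 129 CPM (log2 difference 0.29 ± 0.05, adjusted p = 0.00292). In each of these the morphine and PBS mice stood apart.

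In wild-type mice the same injection gave 0 of 6 calls, where 0.813% of 15749 genes passed. *Rxrg* had the largest difference there, from 74.4, 78.7 and 76.4 CPM after PBS to 62.6, 44.5 and 43.2 CPM after morphine. The groups did not overlap, and the morphine mice differed more among themselves than the PBS mice (log2 difference -0.66 ± 0.14, adjusted p = 0.0824 in limma and 0.00588 in DESeq2). Without PBS mouse 2, whose reads leaned to short genes (Spearman correlation of level against the regional mean with exon length -0.433, and -0.0708 to 0.239 in the other NAc libraries), the adjusted limma p of *Rxrg* was 0.0424, and without morphine mouse 1.0 it was 0.047. Those 2 fits called 627 and 21 genes in all, against 128 with all mice. Leaving out any 1 of the other 4 mice gave 0 member calls, with 0 to 9 genes called in all. *Rxrb* differed by -0.32 ± 0.12 (adjusted p = 0.25), and PBS mouse 2 held its highest value of 67.3 CPM against 50.04 and 49.7 in the other PBS mice. *Pdia3* was 133, 121 and 110 CPM after PBS and 133, 146 and 119 CPM after morphine, which overlapped (log2 difference 0.10 ± 0.10, adjusted p = 0.636).

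The medium spiny neuron markers moved in the same direction as *Rxrg* in both genotypes. Of 8, 8 fell after morphine in *Vdr*-/- mice (median log2 difference -0.56) and 3 in wild-type mice (median -0.69, 8 of 8 with a negative sign). Their sums went from 2712 to 3141 CPM after PBS to 1766 to 2062 CPM after morphine in *Vdr*-/- mice, and from 3033 to 3720 CPM to 1965 to 2525 CPM in wild-type mice. In the same *Vdr*-/- mice 4 of 6 microglia and 4 of 7 oligodendrocyte markers fell, and 4 of 6 astrocyte and 4 of 7 pericyte and fibroblast markers rose. No medium spiny neuron marker was near 0, the lowest mean in the NAc being that of *Tac1* at 112 CPM, and the part of these neurons' RNA content in the *Rxrg* result was not tested. The genotypes were also compared directly. For the genotype-by-morphine interaction in the NAc 0 of 6 members passed, as did 0% of 15571 genes, of which 898 had an unadjusted p under 0.05. The interaction of *Rxrg* was 0.20 ± 0.18 (adjusted p = 0.866), that of *Pdia3* 0.19 ± 0.12 (adjusted p = 0.865) and that of *Rxrb* 0.11 ± 0.14 (adjusted p = 0.898), so the calls in *Vdr*-/- mice alone were not shown to differ between genotypes. The largest were *Cyp27b1* at 0.75 ± 0.34 and *Cyp27a1* at 0.55 ± 0.23 (adjusted p = 0.834 for each). By morphine *Cyp27b1* differed by -0.17 ± 0.22 in wild-type and 0.58 ± 0.28 in *Vdr*-/- NAc, and *Cyp27a1* by -0.29 ± 0.16 and 0.25 ± 0.17, none of them called.

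**Figure D4:**
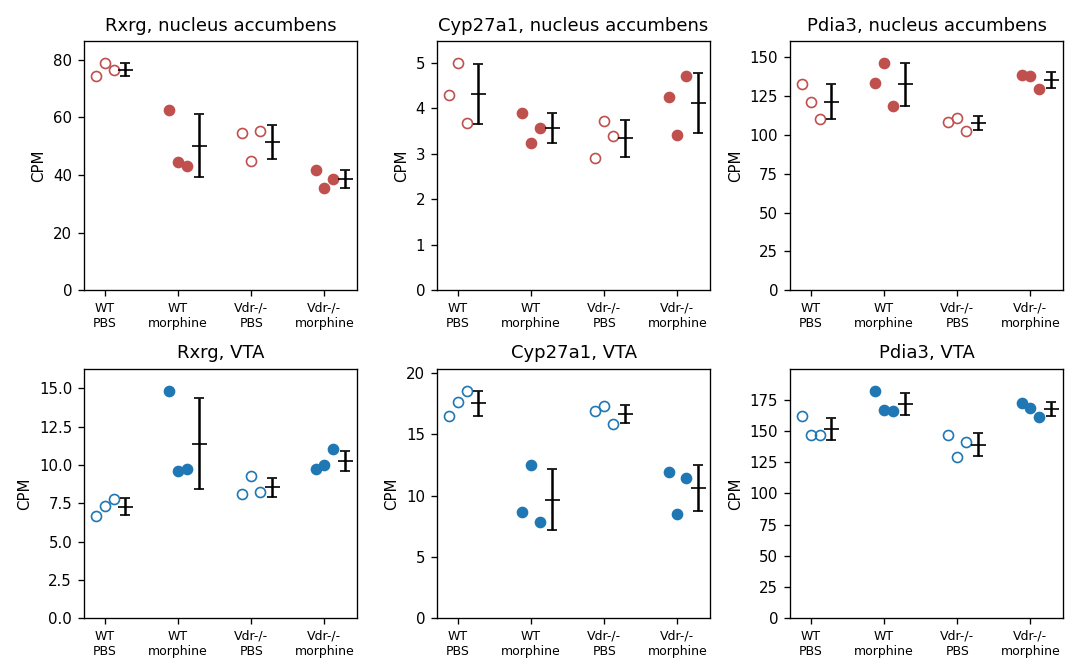
CPM of *Rxrg*, *Cyp27a1* and *Pdia3* in each library of the NAc (top) and VTA (bottom) by genotype and injection, with open points for PBS, filled points for morphine and bars for mean ± SD (n = 3 mice). *Rxrg* is lower after morphine in the NAc and not in the VTA, *Cyp27a1* is lower after morphine in the VTA and not clearly in the NAc, and the axes start at 0.

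In the VTA the deposited tables hold 3 morphine and 2 PBS mice per genotype. *Cyp27a1*, the mitochondrial sterol 27-hydroxylase, was 16.9 and 15.9 CPM after PBS in the tabulated *Vdr*-/- mice (17.3 CPM in mouse 8, which is not in that table) and 11.9, 8.46 and 11.4 CPM after morphine. The groups did not overlap, and *Cyp27a1* fell by 0.64 ± 0.16 on the log2 scale (adjusted p = 0.0470). *Pdia3* rose from 147 and 141 CPM (129 CPM in mouse 8) to 173, 168 and 161 CPM, again with no overlap (log2 difference 0.21 ± 0.05, adjusted p = 0.0460). These were the 2 calls among 5 tested members, where 10% of 16364 genes passed. They were near the threshold: leaving out PBS mouse 7 gave adjusted p of 0.262 and 0.183, and the count fell to 0 or 1 when any 1 of the 5 mice was left out. With all 3 PBS mice and recovered reads the adjusted p were 0.0328 and 0.0383.

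In wild-type VTA *Cyp27a1* was 16.5 and 17.6 CPM after PBS (18.5 CPM in mouse 3, which is not in that table) and 8.62, 12.5 and 7.87 CPM after morphine, with no overlap. The log2 difference was -0.88 ± 0.21 with an adjusted p of 0.0718 in limma, 0.0081 in DESeq2 and 0.0193 in limma with all 3 PBS mice, so 0 of 5 members passed in the table as deposited, where 3.65% of 16187 genes did. *Rxrg* was 6.70 and 7.35 CPM after PBS (7.79 in mouse 3) and 14.8, 9.63 and 9.75 CPM after morphine, higher in every morphine mouse (log2 difference 0.63 ± 0.19, adjusted p = 0.113), and in *Vdr*-/- mice its log2 difference was 0.32 ± 0.11 (adjusted p = 0.0999). *Rxra* differed by 0.23 ± 0.07 in wild-type (adjusted p = 0.112) and 0.04 ± 0.05 in *Vdr*-/- mice (adjusted p = 0.605). Without morphine mouse 1.1 the wild-type count was 3, with *Cyp27a1*, *Rxrg* and *Rxra*. Calls over all genes rose as well, from 591 with all tabulated mice to 2817 without that mouse. The interaction of genotype and morphine in the VTA passed for 0 of 5 members, where 0.0563% of 15998 genes did, and for *Cyp27a1* it was 0.23 ± 0.29 (adjusted p = 0.795). For *Rxra* it was -0.18 ± 0.08 (adjusted p = 0.384) and for *Rxrg* -0.32 ± 0.23 (adjusted p = 0.621).

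Markers of other cells moved with *Cyp27a1* in the VTA. The 7 oligodendrocyte markers summed to 12114 to 12532 CPM after PBS and 8174 to 9030 CPM after morphine in *Vdr*-/- mice, and 7 of 7 fell (median log2 difference -0.76). In wild-type mice they went from 12196 to 13262 CPM to 6238 to 10242 CPM, with 0 of 7 past the threshold and a median of -0.81. The sums include *Vdr*-/- PBS mouse 8 and wild-type PBS mouse 3, which the calls and medians lack. Wild-type morphine mouse 1.1, with the highest *Cyp27a1* of its group, also had the highest oligodendrocyte sum. It was likewise highest in the astrocyte, dopamine neuron, endothelial, microglia, oligodendrocyte precursor, pericyte and fibroblast, and cortical excitatory neuron sums. Its medium spiny neuron and choroid plexus sums were the lowest. The part of any of these cells' RNA in the *Cyp27a1* result was not tested. Of the 6 microglia markers, 5 fell in wild-type and 2 in *Vdr*-/- mice, and of the 8 dopamine neuron markers 6 fell in wild-type mice (median log2 difference -3.20) and 0 in *Vdr*-/- mice. The reads also leaned with exon length by injection in the VTA: the Spearman correlation of a gene's level against the regional mean with its length was negative in all 6 PBS libraries and positive in all 6 morphine libraries (-0.236 to 0.177). After correction for that trend, an alternative chosen after seeing the data, *Cyp27a1* in *Vdr*-/- mice had a log2 difference of -0.57 with an adjusted p of 0.0634, and *Pdia3* 0.26 with 0.0270. In *Vdr*-/- NAc the correlation was likewise higher after morphine (0.194, 0.239 and 0.0685) than after PBS (-0.0708, 0.0667 and -0.0552). In wild-type NAc it overlapped (0.0795 to 0.227 and -0.433 to 0.101). With the correction *Rxrg*, *Rxrb* and *Pdia3* still passed by morphine in *Vdr*-/- NAc.

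For *Rxrg* and *Cyp27a1* the difference between morphine and PBS mice was unlike in the 2 regions. For the difference between regions within a mouse, tested for dependence on injection in all 12 mice (a test chosen after seeing the data), 2 of 6 members passed, where 10.5% of 16242 genes did. The *Rxrg* difference (NAc minus VTA, log2) was 3.38, 3.34 and 3.21 in wild-type and 2.67, 2.21 and 2.67 in *Vdr*-/- mice after PBS, and 2.04, 2.15 and 2.09 in wild-type and 2.04, 1.78 and 1.76 in *Vdr*-/- mice after morphine. Every PBS mouse was above every morphine mouse. The coefficient for morphine against PBS mice was -0.94 ± 0.14 (adjusted p = 0.00487 in limma). The *Cyp27a1* difference was -1.82, -1.72 and -2.19 in wild-type and -2.35, -2.08 and -2.07 in *Vdr*-/- mice after PBS, and -1.05, -1.80 and -1.04 in wild-type and -1.39, -1.19 and -1.19 in *Vdr*-/- mice after morphine. Only wild-type morphine mouse 1.1 lay within the PBS range, and the coefficient for morphine against PBS mice was 0.76 ± 0.15 (adjusted p = 0.0138 in limma). Markers of many cell types moved over the same contrast. In the direction of *Rxrg* 3 of 8 medium spiny neuron markers passed (median -0.87). In the direction of *Cyp27a1* 7 of 7 oligodendrocyte (median 0.45), 4 of 6 astrocyte (0.38), 3 of 7 pericyte and fibroblast (0.94), 2 of 4 oligodendrocyte precursor (0.36), 2 of 6 endothelial (0.27), 1 of 6 microglia (0.34) and 1 of 8 dopamine neuron markers (1.82, 8 of 8 with a positive sign) passed. Of the choroid plexus and cortical excitatory neuron markers 0 of 3 and 0 of 4 passed (medians -0.65 and -0.57). Their part in either result was not tested. *Rxra*, *Rxrb*, *Cyp27b1* and *Pdia3* differed by -0.17 to 0.08, with adjusted p of 0.294 or more.

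**Figure D5:**
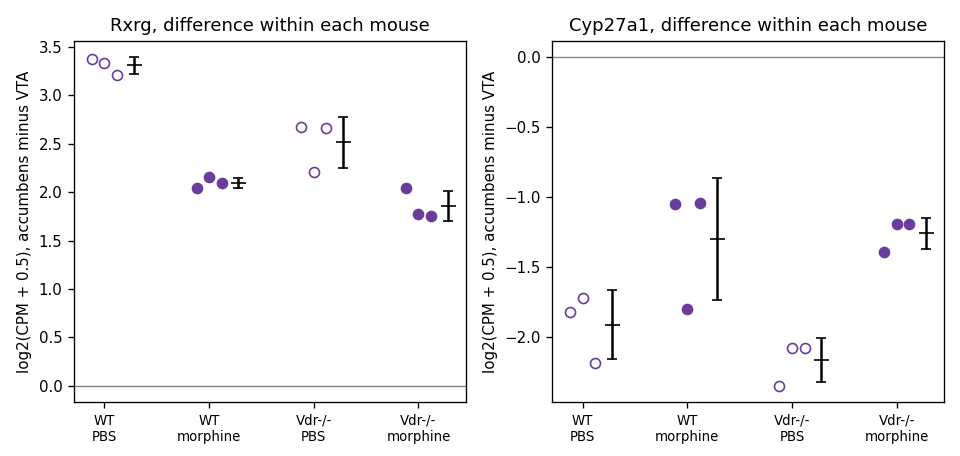
Difference in log2(CPM + 0.5) between the NAc and VTA of each mouse for *Rxrg* (left) and *Cyp27a1* (right) by genotype and injection, with open points for PBS, filled points for morphine and bars for mean ± SD (n = 3). For *Rxrg* the 6 PBS mice lie between 2.21 and 3.38 and the 6 morphine mice between 1.76 and 2.15; for *Cyp27a1* the morphine mice lie nearer to 0 than the PBS mice except wild-type mouse 1.1.

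The other genes of the pathway were followed in 4 lists: 12 coregulators of VDR and RXR, 8 genes of VitD transport, precursor supply and electron transfer to the hydroxylases, 22 genes described as VitD targets in other tissues, of which 20 were in the tables, and 15 other receptors that pair with RXR. By genotype, 0 tested genes of these lists passed in 3 of the 4 comparisons. In the VTA after PBS, where 0.39% of all genes passed, 3 of 14 tested targets were higher in *Vdr*-/- mice and 0 lower: *Cdkn1a*, a cell cycle inhibitor, by 1.62 (adjusted p = 0.0176), *Nfkbia*, the inhibitor of NF-kB, by 0.87 (0.0191) and *Txnip*, a thioredoxin-binding protein, by 0.91 (0.0418) on the log2 scale. The median of the 14 was -0.00 against -0.00 for all genes. The lists were chosen with earlier results of these data known, so this count beside the 0.39% is not an independent test. Leaving out 1 mouse gave 13 to 370 calls over all genes in this comparison. All 3 genes respond to stimuli other than VitD as well.

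After morphine in the NAc of *Vdr*-/- mice, where 19.1% of all genes passed, 3 of 12 coregulators rose and 1 fell, among them the acetyltransferase *Ep300* (0.20, adjusted p = 0.0204) and the splicing-associated coactivator *Snw1* (-0.27, 0.0183). The median over the 12 was 0.06 against -0.01 for all genes. Of 12 tested RXR-pairing receptors the retinoic acid receptor *Rarb* fell (-0.40, adjusted p = 0.000701) and the orphan receptor *Nr4a1* rose (0.84, 0.00845). *Rarb*, like *Rxrg*, was higher in the NAc than in the VTA, by 3.27 on the log2 scale (adjusted p = 4.5e-14). Of 13 tested targets *Cdkn1a* rose (0.45, adjusted p = 0.00929) and the plasma membrane calcium pump *Atp2b1* fell (-0.36, 0.00179), and of 6 transport genes the endocytic adaptor *Dab2* rose (0.62, 0.0266). In wild-type NAc 0 genes of the 4 lists passed.

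In the VTA after morphine 3.65% of all genes passed in wild-type and 10% in *Vdr*-/- mice. The calcium-binding protein *Calb1*, a target in kidney, rose in both genotypes, by 1.04 in wild-type (adjusted p = 0.0211) and 0.88 in *Vdr*-/- mice (0.0093). In wild-type mice 3 of 14 targets, 1 of 7 transport genes, 0 of 12 coregulators and 0 of 11 RXR-pairing receptors passed. *Cdkn1a* also rose there (1.33, adjusted p = 0.0283), and osteopontin *Spp1* (-2.03, 0.0435) and cubilin *Cubn*, a receptor for the VitD-carrying protein (-1.31, 0.0361), fell. In *Vdr*-/- mice the coregulators *Crebbp*, *Ncor1* and *Ncoa1* rose by 0.22 to 0.25 (3 of 12, adjusted p 0.0400 to 0.0493), the receptor *Nr4a2*, also one of the dopamine neuron markers, rose by 0.67 (adjusted p = 0.0312), and *Nfkbia* fell (-0.62, 0.0262). Between regions 10 of 12 coregulators, 10 of 12 RXR-pairing receptors, 11 of 14 targets and 6 of 7 transport genes passed, against the 71.9% of genes that did.

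Over the 24 libraries, with the mean of each region removed, the genes whose levels ran most closely with each member were listed as a description. *Pdia3* ran with other endoplasmic reticulum folding genes, *Hspa5* (Pearson r = 0.94), *Hsp90b1* (0.938) and *Pdia6* (0.919). *Rxrg* ran with *Scmh1* (r = 0.922), *Sh2d5* (0.88) and *Ccdc92b* (0.865), and *Cyp27a1* with *Esrrb* (0.921), *Litaf* (0.896) and *Panx2* (0.886). *Rxrb* ran with *Spns1* (0.89), *Car11* (0.867) and *Clptm1* (0.864), and *Rxra* with *Sf3b3* (0.848), *Tubgcp3* (0.81) and *Rfx1* (0.796). Among the members themselves the closest pair was *Rxrb* and *Rxrg* at r = 0.499, and *Rxra* and *Rxrb* stood at 0.0881. The points share libraries, injections and depth, so these values carry no p.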

How the data were processed

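RNA was sequenced as paired-end reads from a directional kit. Per the labels and the study's methods, the authors trimmed reads with Trimmomatic 0.36, aligned them to the GENCODE annotation of GRCm38 with STAR 2.4.2a, counted reads per gene with its GeneCounts option (the strand setting is not given in the sources used here) and used CASAVA 1.8. The 8 tables the authors deposited hold a signal in the form of normalized counts, reads divided by a size factor per library and table as DESeq2 gives them. Each table compares a pair of the 8 groups, and the genotype and morphine comparisons were made within a table. The tables have 46 library columns for 24 libraries, and 0 columns were left unused. The 2 VTA morphine tables hold 3 morphine and 2 PBS mice, without wild-type PBS mouse 3 and *Vdr*-/- PBS mouse 8.

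Whole reads were recovered from the value that 1 read takes in each column: 100% of values came out whole (tolerance 0.01 reads). Reads on genes summed to 9328726 to 30184426 per library, and CPM are reads scaled by that sum. Gene positions and exon lengths came from GENCODE M21 (30204 of 30270 genes matched).

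The genotype and morphine comparisons used limma 3.58.1 with a trend on log2(value + 1) for genes with a mean of at least 10 in the table. A fold change on this scale understates that of low genes. The interaction was fitted on the same scale over both morphine tables of a region, as the morphine effect in *Vdr*-/- minus that in wild-type mice. Regions, which no table holds together, were compared on log2(CPM + 0.5) of recovered reads for genes with a mean of at least 10 reads, with mouse as a block. P-values were adjusted over all genes tested by the Benjamini-Hochberg method, with a threshold of 0.05, and intervals are 95%. Errors beside log2 differences are SE and those beside CPM are SD. *Vdr*, too low for these fits, was tested by exact permutation. Alternatives were other pseudocounts, filters and scalings, count tests on the recovered reads, leaving out each mouse, the replicate block, and, chosen after seeing the data, the correction for exon length and the region-by-morphine and region-by-genotype tests. On recovered reads DESeq2 1.42.0 and edgeR 4.0.16 called 63 and 12 genes by genotype in PBS NAc and 2045 and 3076 by morphine in *Vdr*-/- NAc, where limma called 11 and 3018. The scripts were tested on simulated data. The mice are separate animals. The 10 genes are all named, and of the other lists at most 4 genes per list and comparison, those of smallest p, except for 1 gene that is not reported here. The members and lists were chosen with earlier results of these data known.

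The last digits of the morphine mice are shared between genotypes (1.0 and 2.0, for example). Same-digit mice did not deviate together (r -0.0802 to -0.00817 in the NAc and -0.253 to -0.144 in the VTA), so the digits were not used as pairs.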

Additional observations from a re-analysis of the deposited data

Results flagged for a closer look

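For 2 genes the difference between morphine and PBS mice was unlike in the 2 regions. The test was of the difference itself, limma on the NAc minus VTA difference within each of 12 mice. For *Rxrg* the coefficient for morphine against PBS mice was -0.94 (95% interval -1.24 to -0.63, adjusted p = 0.00487). Over all alternatives the value lay between -1.03 and -0.89 with an adjusted p of 0.00229 to 0.0152. For *Cyp27a1* the coefficient was 0.76 (95% interval 0.43 to 1.09, adjusted p = 0.0138), with 0.70 to 0.89 and an adjusted p of 0.00567 to 0.0349 over the alternatives. The test was chosen after seeing the data, and the counts of the marker lists over the same contrast are given with the result above.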

How the results depend on the processing

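The number of members past the threshold was 0 in each genotype comparison and interaction under every alternative but DESeq2, which called 1 (*Rxrg*) by genotype in PBS NAc and 1 (*Rxra*) in PBS VTA. DESeq2 also called 1 by morphine in wild-type NAc (*Rxrg*) and 1 in wild-type VTA (*Cyp27a1*), and all 3 PBS mice gave 1 in wild-type VTA. By morphine in *Vdr*-/- NAc limma without a trend called 1 (*Pdia3*) in place of 3. By morphine in *Vdr*-/- VTA the 2 calls became 0 with no filter on low values, 0 without a trend, 1 with quantile normalization and 1 with the correction for exon length. Leaving out 1 mouse gave 0 to 1 calls by morphine in wild-type NAc, 2 to 3 in *Vdr*-/- NAc, 0 to 3 in wild-type VTA, 0 to 1 in *Vdr*-/- VTA, 5 to 6 between regions and 2 in the region-by-morphine test. The 3 calls in wild-type VTA came with 2817 genes called in all. The *Vdr* difference by genotype ranged from -0.00967 to 0.162 CPM in the NAc and from -0.0516 to 0.106 CPM in the VTA when 1 mouse was left out. Signs turned when 1 mouse was left out in these log2 differences, none of them called: by genotype, *Rxra* in PBS NAc (-0.12 to 0.026), *Pdia3* in morphine NAc (-0.031 to 0.11), and *Rxrg* (-0.22 to 0.053) and *Rxrb* (-0.073 to 0.052) in morphine VTA. They also turned for *Rxrb* by morphine in wild-type VTA (-0.11 to 0.015) and in the interactions of the NAc (-0.016 to 0.17) and VTA (-0.097 to 0.029), for region-by-morphine of *Cyp27b1* (-0.045 to 0.21) and *Pdia3* (-0.030 to 0.036), and for region-by-genotype of *Pdia3* (-0.022 to 0.044). Region-by-morphine of *Pdia3* was also -0.016 with TMM-scaled CPM and -0.040 with the correction for exon length. With the replicate block by last digit 0 members passed by genotype in morphine NAc and VTA, as without it, while calls over all genes went from 30 to 19 and from 10 to 4. Without the block by mouse 6 members passed between regions, as with it. The cause of these changes was not tested.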
